A study of Homo sapiens with 40 samples.

Results

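A set of 47 genes that drive the entry of human cells into S phase and copy their DNA was followed in RKO cells depleted of IGF2BP2 or IGF2BP3. They were chosen by symbol from their known roles, and every one of them was found in the deposited table of 19962 genes by its Ensembl identifier. All 47 passed the filter on low counts and are among the 11428 genes tested. By role they are 10 genes of origin licensing, 6 of helicase activation, 7 of the polymerases and primase, 8 of the sliding clamp, clamp loader and RPA, 4 that process flaps, join ends or remove bases, 5 of deoxynucleotide supply, 3 of the G1/S cyclins and E2F, and 4 other genes of S phase. They lie on 20 chromosomes.

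Replication is prepared in G1, when the origin recognition complex, CDC6 and CDT1 load the MCM2 to MCM7 helicase onto DNA. At the start of S phase CDC45 and the GINS complex join this ring, MCM10 helps it to open the origin, and primase with the DNA polymerases copies the strands behind it. Cyclin E activates CDK2 at the G1/S transition and the E2F factors, once released from the retinoblastoma protein, switch on most of the genes described here. Their mRNAs therefore rise and fall with the share of cells near S phase. IGF2BP2 and IGF2BP3 are RNA-binding proteins that are known to bind and stabilise many mRNAs in cancer cells.

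RKO is an established human colorectal carcinoma line. The cells carried Cas9 under a doxycycline-inducible promoter, a GFP marker and, in each of 3 derived lines, a lentiviral pair of guide RNAs with a BFP marker, against the AAVS1 locus (sgAAVS1), IGF2BP2 (sgIGF2BP2) or IGF2BP3 (sgIGF2BP3). Each line was given doxycycline (Dox) at 250 ng/mL for 72 hours, or DMSO as its control. The sgIGF2BP2 cells were also transfected with an siRNA pool against IGF2BP2 (siIGF2BP2) and the sgIGF2BP3 cells with a pool against IGF2BP3 (siIGF2BP3), at 75 nM for 48 hours, each beside a non-targeting siRNA (siControl). All 10 groups thus carried inducible Cas9 and guides, and all received s4U, a nucleoside that marks new RNA, at 250 µM for 2 hours before RNA was made into poly(A) libraries. Cells positive for the BFP marker were sorted after transduction, each guide pair is present in 1 line, and the labels do not say whether a line is a single clone, so guide and line cannot be told apart. Each group has 4 libraries, each from a well of a 24-well plate, so the p-values measure only the spread between wells of a line.

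Total counts per library ran from 10018181 to 24822807 (median 13468792). In CPM (counts scaled to library total), IGF2BP2 was at 83.8-86.7 with DMSO and 29.5-38.0 with Dox in sgIGF2BP2 cells, and at 103-113 with siControl and 29.2-31.7 with siIGF2BP2. IGF2BP3 was at 175-185 with DMSO and 51.1-59.1 with Dox in sgIGF2BP3 cells, and at 164-174 with siControl and 22.6-26.4 with siIGF2BP3. The sgAAVS1 control line was not without change under Dox: SPOP, an adaptor of a ubiquitin ligase, fell there from 35.7-38.9 to 10.1-13.1 CPM. In sgIGF2BP2 cells IGF2BP3 was also lower after Dox (log2 fold change -0.25). Of 7 epithelial marker genes 3 were detected (KRT8, KRT18 and EPCAM), summing with the others to 189-290 CPM in a library. The defining CDH1 and KRT19 were near 0. Leukocyte markers summed to 1.11-3.52 CPM, fibroblast markers to at most 1.10 and endothelial markers to at most 0.455. The Dox-treated sgIGF2BP2 library of replicate 2 stood apart from the other libraries of its group, with a chi-square statistic per gene of 11.8 to 16.6 against them, and results for that group are also given without it.

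Since these genes are known for control by E2F, promoters from RefSeq (assembly GRCh38.p14, 250 bases before to 50 bases after each transcript start) were searched on both strands for the letters TTTCCCGC, TTTCGCGC, TTTGCCGC and TTTGGCGC, the common forms of the E2F motif. A window was found for 39 of the 47 genes (55 windows). It was not found for MCM4, MCM5, GINS4, POLD3, RPA2, RPA3, CCNE2 and FAM111B. At least 1 match lay in the promoters of 23 of the 39 genes (59.0%), against 627 of 9133 tested genes with a window (6.87%). The CCAAT box (letters CCAAT) was present in 59.0% against 43.5%, the GC box GGGCGG in 79.5% against 78.9% and TTTGAA, the cell cycle homology region of late cell cycle genes, in 10.3% against 13.3%. The share of windows of the same length with an E2F match was 43.6% among these genes, 5.02% over tested genes and 3.31% over all 35116 windows. The median GC content of the windows was 67.7%, against 65.0% for tested genes. The sequences below are the last 120 bases before the start, 5′ to 3′ on the strand of the gene, with E2F matches in capitals. They are shown because their genes include the members that stood out most in the siRNA comparisons (E2F1, FAM111A, CCNE1, RRM2), the sgAAVS1 line (UHRF1) and the helicase (MCM6, MCM7).
E2F1 (chr20:33686386-33686505, minus strand): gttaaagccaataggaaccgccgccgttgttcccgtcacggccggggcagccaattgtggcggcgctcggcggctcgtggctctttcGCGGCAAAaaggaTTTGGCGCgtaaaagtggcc
UHRF1 (chr19:4909381-4909500, plus strand): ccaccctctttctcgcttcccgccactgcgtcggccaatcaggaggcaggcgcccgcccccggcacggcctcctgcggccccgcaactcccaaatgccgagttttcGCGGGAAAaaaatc
FAM111A (chr11:59144742-59144861, plus strand): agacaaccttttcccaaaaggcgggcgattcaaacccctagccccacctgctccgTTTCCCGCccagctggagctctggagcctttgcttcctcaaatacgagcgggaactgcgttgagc
MCM6 (chr2:135876444-135876563, minus strand): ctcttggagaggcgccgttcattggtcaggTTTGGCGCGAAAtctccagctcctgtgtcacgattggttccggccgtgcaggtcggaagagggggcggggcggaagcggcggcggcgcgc
MCM7 (chr7:100101398-100101517, minus strand): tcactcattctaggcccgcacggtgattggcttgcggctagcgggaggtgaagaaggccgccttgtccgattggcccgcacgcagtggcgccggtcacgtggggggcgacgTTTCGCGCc
CCNE1 (chr19:29811871-29811990, plus strand): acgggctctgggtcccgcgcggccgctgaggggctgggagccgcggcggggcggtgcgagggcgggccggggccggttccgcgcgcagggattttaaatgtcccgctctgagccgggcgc
RRM2 (chr2:10122619-10122738, plus strand): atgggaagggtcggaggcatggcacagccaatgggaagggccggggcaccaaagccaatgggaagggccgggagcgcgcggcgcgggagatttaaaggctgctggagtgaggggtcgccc
In E2F1, the gene of the factor itself, the matches lie 33 to 26 and 20 to 13 bases before the start. In MCM6 matches on opposite strands overlap in 1 run of capitals. The CCNE1 and RRM2 promoters held no match in any window. A match is only a string of letters, and binding was not measured.

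The genes were moderately to highly expressed and varied little between wells. Over the 10 groups their mean level ran from 11.2 CPM to 654 CPM (median 83.0), and the least read gene, PRIM1, had 94 counts in its lowest library. The median coefficient of variation within groups ran from 1.47% to 8.71% over the genes, with a median of 3.97%. Per kilobase of merged exons the highest levels were those of the sliding clamp PCNA (209 CPM per kb), the helicase subunit MCM7 (149), thymidylate synthase TYMS (75.9), the ribonucleotide reductase subunit RRM2 (72.9) and thymidine kinase TK1 (67.6). The lowest were the primase subunit PRIM1 (4.58) and the polymerase subunits POLA2 (2.51) and POLD3 (2.46), and the median was 21.0. The highest group mean exceeded the lowest by a factor of 1.14 to 1.79 (median 1.27). CCNE1 had the widest span (1.79), followed by FAM111B (1.45) and POLE2 (1.43), and no change in a treatment comparison reached 2-fold.

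**Figure D1:**
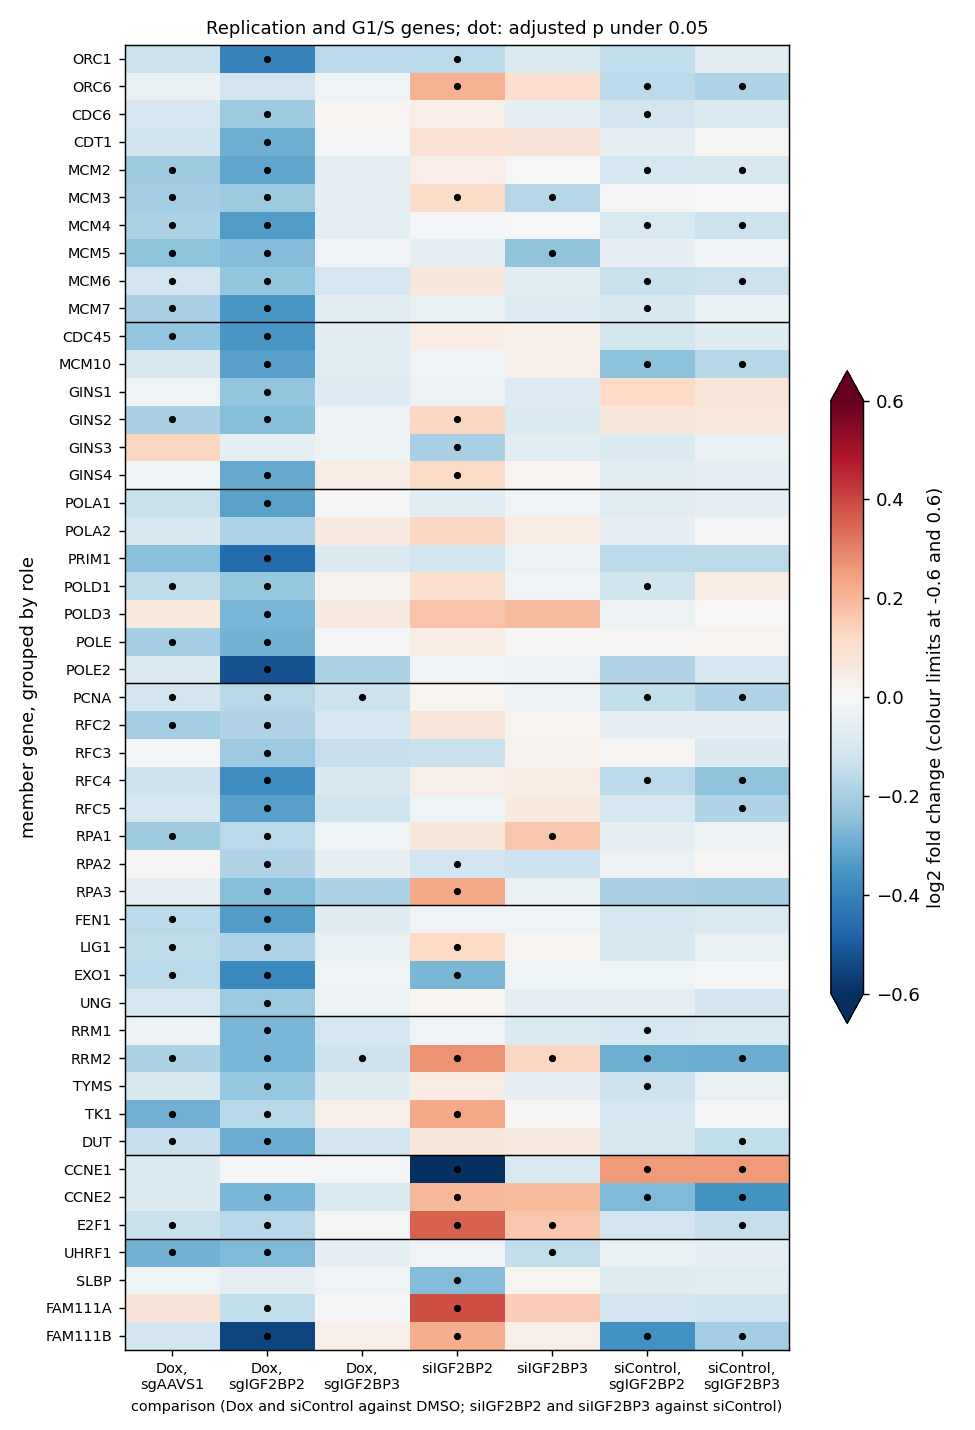
Log2 fold changes of the 47 genes (rows, grouped by role) in 7 comparisons (columns). A dot marks an adjusted p under 0.05; colours end at -0.6 and 0.6, so the fall of CCNE1 after siIGF2BP2 (-0.83) is beyond the scale. The column for Dox in sgIGF2BP2 cells has 42 dots, all on falls.

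After Dox, most replication genes were called lower in sgIGF2BP2 cells, fewer of them in sgAAVS1 cells, and 2 in sgIGF2BP3 cells. By sign alone, with or without a call, 47, 43 and 40 of the 47 had a negative log2 fold change in the same order. In sgIGF2BP2 cells 42 of the 47 were called lower and none higher by edgeR's quasi-likelihood test at a Benjamini-Hochberg adjusted p under 0.05, and the middle gene had a log2 fold change of -0.26. Of all genes tested, 10.4% were called lower and 10.0% higher in this comparison, with a median of 0.01. In sgAAVS1 cells 21 were called lower and none higher (median -0.12), where 8.68% of all genes were lower and 7.25% higher. In sgIGF2BP3 cells PCNA and RRM2 were called lower and none higher (median -0.05), where 1.01% were lower and 1.64% higher. Among the 8537 genes expressed at least as highly as the lowest of the 47, the shares called lower were 13.5%, 11.3% and 1.29%. At an unadjusted p under 0.05, edgeR had 0, 1 and 0 of the 47 higher in sgIGF2BP2, sgAAVS1 and sgIGF2BP3 cells and 43, 31 and 11 lower, and DESeq2 called none higher. Without replicate 2 of the Dox-treated sgIGF2BP2 cells, 42 were again called lower. In bulk RNA, fewer cells in late G1 or S phase and less RNA of these genes per cell cannot be told apart.

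The siRNAs gave another picture. After siIGF2BP2, 12 of the 47 (25.5%) were called higher and 6 (12.8%) lower (median 0.04), against 18.4% of all genes higher and 18.4% lower. Among genes expressed at least as highly as the lowest of the 47, 19.2% were higher and 23.0% lower. With scaling by total counts alone the split of the 47 was 16 higher and 4 lower. Of the 18 calls after siIGF2BP2, 9 were kept under every alternative setting of scaling, filter, fit or libraries left out. Not all of the others are marked gene by gene below. After siIGF2BP3, 3 were higher and 3 lower (median 0.00), against 0.936% and 1.40% of all genes. These are 6.38% of the 47 in each direction. Without replicate 2 of the siIGF2BP3 wells 1 was higher and 2 were lower. Of the 42 genes lower after Dox in sgIGF2BP2 cells, 11 were higher after siIGF2BP2 and 3 were lower. Across the 47 genes the log2 fold changes of these comparisons, which share no library but come from 1 line, had Pearson's r of -0.15 and Spearman's rho of 0.18.

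The mean of the 47 log2 CPM values, each centred on its mean over libraries, summarises the pattern by library. DMSO wells of the 3 lines lay at similar values: 0.0795 ± 0.0169 (SD, n = 4) in sgAAVS1, 0.0775 ± 0.0250 in sgIGF2BP2 and 0.0715 ± 0.0101 in sgIGF2BP3 cells. Dox-treated wells lay at -0.0399 ± 0.0064, -0.1825 ± 0.0116 and 0.0184 ± 0.0183 in the same order. In sgIGF2BP3 cells too the Dox wells (-0.0012 to 0.0427) all lay below the DMSO wells (0.0602 to 0.0814). The siControl wells lay at -0.0140 ± 0.0134 and -0.0078 ± 0.0058 in sgIGF2BP2 and sgIGF2BP3 cells. The siIGF2BP2 wells (0.0091 ± 0.0242) and siIGF2BP3 wells (-0.0117 ± 0.0165) overlapped their siControl wells.

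**Figure D2:**
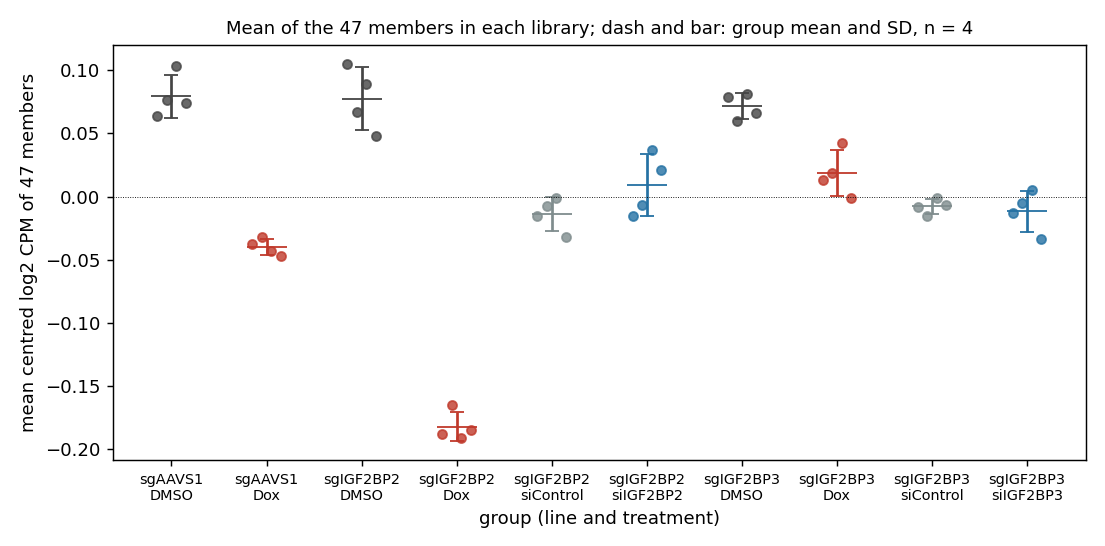
Mean centred log2 CPM of the 47 genes in each library (points), with group mean and SD (n = 4). The 4 Dox-treated sgIGF2BP2 wells lie from -0.191 to -0.166, below all other libraries; DMSO wells lie highest.

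Of the 10 origin licensing genes 9 were called lower after Dox in sgIGF2BP2 cells and 6 in sgAAVS1 cells. All of MCM2 to MCM7, the subunits of the helicase ring, were called lower after Dox in both sgAAVS1 and sgIGF2BP2 cells, with -0.12 (MCM6) to -0.24 (MCM5) in the first and -0.22 (MCM3) to -0.35 (MCM7) in the second. The call of MCM6 in sgAAVS1 cells was lost under 6 of 16 alternative settings. MCM5 stood at 224, 233, 224 and 208 CPM in the sgAAVS1 DMSO wells and at 189, 191, 184 and 188 after Dox. The wells did not overlap, and the log2 fold change was -0.24 (SE 0.036, edgeR adjusted p = 5.84e-07). The loading factors CDC6 and CDT1 and the origin recognition subunit ORC1 were called lower in sgIGF2BP2 cells (-0.22, -0.30 and -0.39). In sgAAVS1 cells they had -0.10, -0.12 and -0.13 and did not pass the test. There CDT1 was called under 6 of 16 alternative settings and CDC6 under 1. At an unadjusted p under 0.05, edgeR had 9 of the 10 licensing genes lower in sgAAVS1 cells. ORC6, the smallest origin recognition subunit, was not called in sgIGF2BP2 (-0.11) or sgAAVS1 cells (-0.04). Under 2 of 16 alternative settings it was called in sgIGF2BP2 cells. In sgIGF2BP3 cells edgeR and DESeq2 called none of the 10, 2 were lower at an unadjusted p under 0.05, and values ran from -0.16 (ORC1) to 0.01 (CDC6).

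The siRNAs split the helicase ring. After siIGF2BP3, MCM5 went from 209, 214, 218 and 204 CPM in siControl wells to 174, 178, 185 and 178. The wells did not overlap (-0.24, SE 0.036, edgeR adjusted p = 1.81e-06). MCM3 went from 174, 164, 161 and 176 to 145, 148, 159 and 149 CPM, again without overlap (-0.17, SE 0.037, edgeR adjusted p = 0.00212). The other 4 subunits of the same ring were not called, at -0.08 (MCM7) to 0.00 (MCM2 and MCM4). After siIGF2BP2, MCM3 was called higher (0.11) and so was ORC6 (0.21), ORC1 was called lower (-0.16, lost under 5 of 16 settings), and the other 7 licensing genes were not called. The change of MCM3 differed between the siRNAs by -0.28 (SE 0.051, edgeR adjusted p = 2.52e-05) and that of MCM5 by -0.19, each siRNA having been given to its own line.

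Among the helicase activators, CDC45 (-0.23) and the GINS subunit GINS2 (-0.19) were called lower after Dox in sgAAVS1 cells. In sgIGF2BP2 cells 5 of 6 were: CDC45 (-0.35), MCM10 (-0.33), GINS4 (-0.30), GINS2 (-0.25) and GINS1 (-0.24). The exception was GINS3, at -0.05 there and 0.13 in sgAAVS1 cells, where scaling by total counts alone called it higher (0.17). GINS subunits work as 1 complex, but after siIGF2BP2 GINS2 (0.12) and GINS4 (0.11) were called higher, GINS3 (-0.19) lower and GINS1 (-0.03) neither. These calls were lost under 6 (GINS2), 7 (GINS4) and 3 (GINS3) of 16 alternative settings. None of the 6 was called by edgeR or DESeq2 after siIGF2BP3 or after Dox in sgIGF2BP3 cells, nor passed an unadjusted p under 0.05.

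The polymerase genes included some of the deepest falls. POLE2, the second subunit of the leading strand polymerase epsilon, stood at 22.3, 17.7, 20.2 and 22.5 CPM in sgIGF2BP2 DMSO wells and at 14.5, 13.7, 14.3 and 15.2 after Dox. The lowest DMSO well was above the highest Dox well (-0.52, SE 0.081, edgeR adjusted p = 8.24e-07). PRIM1, the catalytic primase subunit that lays down RNA primers, went from 13.7, 12.9, 12.6 and 12.2 to 9.80, 8.84, 9.43 and 9.15 CPM. Its wells did not overlap (-0.46, SE 0.095, edgeR adjusted p = 0.000153). POLA1, the catalytic subunit of the priming polymerase alpha, fell as well (-0.32), as did the epsilon subunit POLE (-0.28) and the delta subunits POLD3 (-0.27, a call lost under 7 of 16 settings) and POLD1 (-0.23). POLA2, the partner of POLA1, had -0.19 with an edgeR adjusted p of 0.172. In the main fit POLA2 was not called in any of the 5 treatment comparisons, alone among the 47. Under 1 of 16 alternative settings it was called after Dox in sgIGF2BP2 cells.

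In sgAAVS1 cells POLE (-0.20) and POLD1 (-0.15, lost under 3 of 16 settings) were called lower, while PRIM1 (-0.25, edgeR adjusted p = 0.0658) and POLE2 (-0.09) were not. No polymerase gene was called by edgeR after either siRNA or after Dox in sgIGF2BP3 cells, where 1, 1 and 1 of the 7 had an unadjusted p under 0.05. POLE2 had -0.19 in the last (edgeR adjusted p = 0.195).

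All 8 genes of the clamp, its loader and the single-strand binding protein RPA fell after Dox in sgIGF2BP2 cells, from -0.16 (RPA1) to -0.37 (RFC4, a loader subunit). In sgAAVS1 cells RPA1 (-0.21), the loader subunit RFC2 (-0.20) and PCNA (-0.11) were called lower. PCNA, the ring that tethers the polymerases to DNA, was at 350, 318, 339 and 331 CPM in sgIGF2BP3 DMSO wells and at 320, 302, 305 and 298 after Dox. The wells overlapped, the log2 fold change was -0.13 (edgeR adjusted p = 0.0448), and the call was lost under 7 of 16 alternative settings: thinning, or leaving out DMSO replicate 1, 3 or 4 or Dox replicate 2, 3 or 4. After siIGF2BP3 the large RPA subunit RPA1 went from 114, 114, 116 and 117 to 131, 130, 127 and 128 CPM. It rose without overlap (0.16, SE 0.035, edgeR adjusted p = 0.00188), whereas RPA2 and RPA3, its partners in the trimer, had -0.13 and -0.04 and were not called. After siIGF2BP2, RPA3 was called higher (0.23) and RPA2 lower (-0.12), calls lost under 8 and 7 of 16 settings. After Dox, calls were also lost under 6 of 16 settings for PCNA in sgAAVS1 cells and for RPA3 in sgIGF2BP2 cells, and under 3 of 16 for RFC3 in sgIGF2BP2 cells.

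The genes that finish lagging strand pieces and repair the new strand fell in both of these Dox comparisons. FEN1, which cuts flaps, fell in sgIGF2BP2 (-0.34) and sgAAVS1 cells (-0.16), as did the ligase LIG1 (-0.19 and -0.15). The exonuclease EXO1 had -0.38 and -0.16, both called, the second lost under 6 of 16 settings, and UNG, which removes uracil from DNA, was called in sgIGF2BP2 cells (-0.22) and not in sgAAVS1 cells (-0.11). EXO1 was also among the 3 genes lower both after Dox and after siIGF2BP2 in the sgIGF2BP2 line, with ORC1 and RPA2. It stood at 63.0, 64.2, 58.7 and 60.4 CPM in siControl wells and at 53.2, 50.7, 50.2 and 49.9 after siIGF2BP2. The wells did not overlap (-0.28, SE 0.051, edgeR adjusted p = 1.16e-05). LIG1 was called higher there (0.12).

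Deoxynucleotide supply gave the single gene that the main fit called in every treatment comparison, RRM2, the regulated small subunit of ribonucleotide reductase. It fell after Dox in sgIGF2BP2 (-0.27), sgAAVS1 (-0.19) and sgIGF2BP3 cells and rose after both siRNAs. In sgIGF2BP3 cells it went from 439, 422, 433 and 431 to 394, 393, 402 and 391 CPM, without overlap (-0.13, SE 0.030, edgeR adjusted p = 0.00786). After siIGF2BP2 it went from 350, 347, 355 and 331 to 406, 416, 432 and 412 CPM, without overlap (0.27, SE 0.030, edgeR adjusted p = 2.38e-11). These treated wells lay near the DMSO wells of the same line, at 414 to 442 CPM. After siIGF2BP3 the change was smaller, from 347, 350, 357 and 349 to 373, 387, 382 and 385 CPM (0.12, SE 0.030, edgeR adjusted p = 0.0108), without overlap. Of the 6 members called after siIGF2BP3, 3 kept the call under every alternative setting. Without replicate 2 of the siIGF2BP3 wells fewer members were called higher.

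TK1, the salvage thymidine kinase, had the largest fall of the 47 in sgAAVS1 cells, from 134, 143, 134 and 120 to 107, 111, 106 and 111 CPM. The wells did not overlap (-0.29, SE 0.043, edgeR adjusted p = 5.82e-07). It was also called lower in sgIGF2BP2 cells (-0.17, with overlap) and higher after siIGF2BP2 (0.23). DUT, which removes dUTP, was called lower in sgIGF2BP2 (-0.30) and sgAAVS1 cells (-0.14), the latter call lost under 8 of 16 settings. The large reductase subunit RRM1 and TYMS, which makes thymidylate, were called in sgIGF2BP2 cells (-0.27 and -0.23) and had -0.03 and -0.10 in sgAAVS1 cells.

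The 3 regulators of the G1/S transition did not follow the replication genes in all comparisons. CCNE1, which encodes cyclin E1, was not called after Dox in sgIGF2BP2 (-0.01, edgeR adjusted p = 0.952), sgAAVS1 (-0.08) or sgIGF2BP3 cells (-0.01). After siIGF2BP2 it had the largest change of any of the 47 in a treatment comparison, from 51.8, 53.2, 55.5 and 55.0 to 27.1, 28.9, 35.9 and 28.6 CPM. The highest treated well was far below the lowest control well (-0.83, SE 0.056, edgeR adjusted p = 2.88e-20). CCNE2, the gene of cyclin E2, went the other way there (0.19, called), and it had fallen after Dox in the same line (-0.27). After siIGF2BP3, CCNE1 (-0.09) and CCNE2 (0.19) were not called. The change of CCNE1 differed between the siRNAs by 0.74 (SE 0.078, edgeR adjusted p = 9.11e-12).

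E2F1 fell slightly after Dox in sgIGF2BP2 (-0.16) and sgAAVS1 cells (-0.13, a call lost under 7 of 16 settings) and rose after both siRNAs. After siIGF2BP2 it went from 73.7, 82.0, 86.1 and 89.5 to 96.0, 108, 113 and 104 CPM. The wells did not overlap (0.36, SE 0.045, edgeR adjusted p = 1.65e-09). After siIGF2BP3 it went from 79.2, 79.5, 80.6 and 80.0 to 84.9, 90.3, 92.7 and 89.7 CPM, also without overlap. That rise (0.16, SE 0.047, edgeR adjusted p = 0.0432) was lost under 8 of 16 alternative settings. In sgIGF2BP3 cells E2F1 was called lower in siControl than in DMSO wells. The siIGF2BP3 wells overlapped the DMSO wells of that line, at 86.5 to 90.5 CPM. The siIGF2BP2 wells lay above the DMSO wells of their line, at 86.5 to 93.8 CPM.

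Of the other S phase genes, FAM111B, which encodes a trypsin-like protease, fell most in sgIGF2BP2 cells, from 37.9, 36.2, 41.4 and 32.8 to 27.7, 23.0, 26.4 and 25.4 CPM. The wells did not overlap (-0.55, SE 0.070, edgeR adjusted p = 5.05e-09), and the value in sgAAVS1 cells was -0.11 without a call. Its relative FAM111A, which acts at replication forks, had -0.15 there (edgeR adjusted p = 0.0403), a call lost under 10 of 16 alternative settings. After siIGF2BP2 both were called higher, FAM111B by 0.22 and FAM111A by 0.38. FAM111A went from 39.5, 40.1, 41.7 and 41.9 to 52.0, 52.9, 50.0 and 57.5 CPM, without overlap (SE 0.052, edgeR adjusted p = 1.00e-08).

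UHRF1 guides DNA methylation to newly copied strands. It went from 165, 163, 159 and 153 to 130, 138, 125 and 132 CPM after Dox in sgAAVS1 cells, without overlap (-0.28, SE 0.039, edgeR adjusted p = 6.71e-08), and fell about as far in sgIGF2BP2 cells (-0.27). After siIGF2BP3 it went from 160, 154, 148 and 160 to 138, 139, 141 and 144 CPM, without overlap (-0.15, SE 0.039, edgeR adjusted p = 0.017), and that call was lost under 4 of 16 settings. SLBP, which binds the stem-loop of histone mRNAs, was called in 1 of the 5 treatment comparisons, siIGF2BP2. It went from 98.8, 93.4, 99.3 and 99.8 to 82.3, 83.0, 82.9 and 79.1 CPM, without overlap (-0.26, SE 0.048, edgeR adjusted p = 1.45e-05).

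The lines were compared directly by the difference between their Dox effects. All 21 genes called lower in sgAAVS1 cells were also called lower in sgIGF2BP2 cells, and 42 of 47 had the more negative value in sgIGF2BP2 cells. The 2 effects share no library and had Pearson's r of 0.31 and Spearman's rho of 0.29 across the 47 genes. The difference itself was called for 13 genes, all more negative in sgIGF2BP2 cells (25 at an unadjusted p under 0.05), against 2.97% of all genes lower and 4.01% higher. They were FAM111B (-0.44, edgeR adjusted p = 0.00211), POLE2 (-0.44), GINS4 (-0.28), ORC1 (-0.26), RRM1 (-0.25), RFC4 (-0.25), MCM10 (-0.23), EXO1 (-0.22), RFC5 (-0.22), GINS1 (-0.21), RPA2 (-0.19), MCM7 (-0.16) and MCM4 (-0.15). Of the remaining 34, MCM3, MCM5 and UHRF1 had nearly equal values in both lines, with differences of -0.02, -0.02 and 0.02. The count depended on single libraries: it was 5 without sgAAVS1 Dox replicate 3 or without sgIGF2BP2 DMSO replicate 3, 6 when replicate 1 of the sgAAVS1 DMSO wells was left out, and 8 when replicate 2 of those wells or replicate 1 or 3 of the sgIGF2BP2 Dox wells was. It was 6 when only these 4 groups were fitted. FAM111B, POLE2, GINS4 and RRM1 kept the call under all 24 alternative settings.

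**Figure D3:**
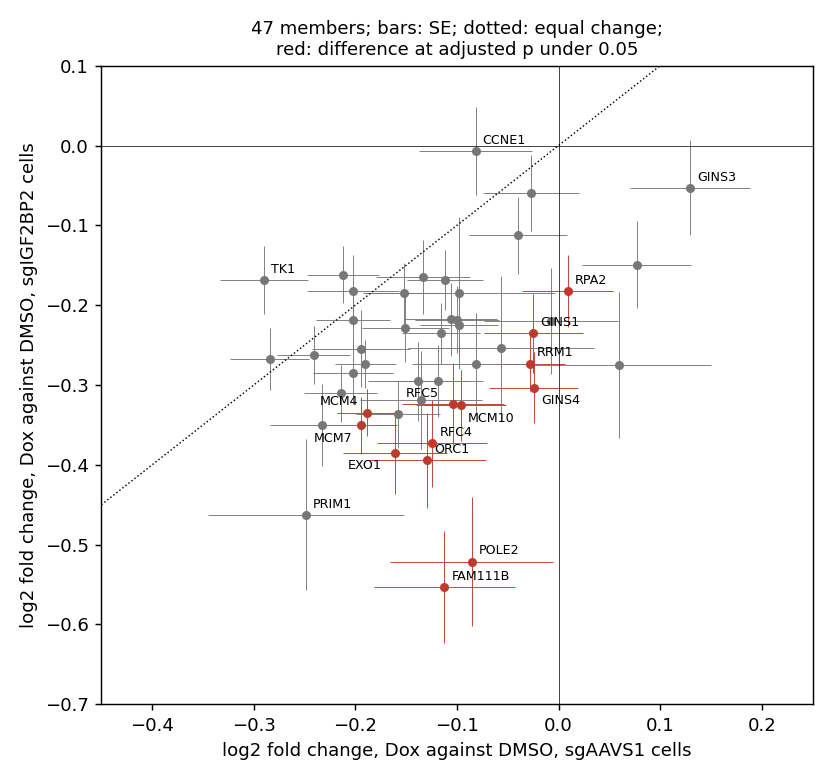
Log2 fold change after Dox in sgAAVS1 cells (x axis) and in sgIGF2BP2 cells (y axis) of the 47 genes, with SE bars; the dotted line marks equal change. The 13 genes in red, whose difference had an adjusted p under 0.05, all lie below the line; TK1 and CCNE1 lie above it.

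Between sgIGF2BP3 and sgAAVS1 cells the difference was called for 7 genes, all less negative in sgIGF2BP3 cells, against 4.53% of all genes higher and 3.25% lower. They were TK1 (0.32, edgeR adjusted p = 0.000253), UHRF1 (0.23), MCM5 (0.22), POLE (0.19), RPA1 (0.18), MCM2 (0.16) and MCM4 (0.13). The count was 4 without sgIGF2BP3 DMSO replicate 4 or without sgIGF2BP3 Dox replicate 4, and 3 with scaling by total counts alone. Both differences use the sgAAVS1 libraries. Between the siRNAs the difference (siIGF2BP3 minus siIGF2BP2) was called for 10 genes, against 9.88% of all genes higher and 8.82% lower. EXO1 (0.25), SLBP (0.27) and CCNE1 were more positive after siIGF2BP3, and MCM3, FAM111A (-0.24), TK1 (-0.22), GINS2 (-0.21), E2F1 (-0.19), MCM5 and RRM2 (-0.15) were more negative.

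The siControl wells had lower levels of many of these genes than the DMSO wells. Against DMSO wells of the same line, siControl wells had 15 of the 47 lower and 1 higher in sgIGF2BP2 cells (median -0.10), where 8.16% of all genes were lower and 10.2% higher. With scaling by total counts alone the split was 9 lower and 2 higher, and without sgIGF2BP2 DMSO replicate 3 it was 7 lower and 1 higher. In sgIGF2BP3 cells 13 were lower and 1 higher (median -0.07), where 8.54% were lower and 10.9% higher. In both lines 10 genes were called lower: ORC6, MCM2, MCM4, MCM6, MCM10, PCNA, RFC4, RRM2, CCNE2 and FAM111B. Solvent, transfection and time in treatment differ together between these groups and cannot be told apart.

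CCNE1 was the gene called higher in both lines. It stood at 43.5, 42.5, 47.3 and 45.8 CPM with DMSO and 51.8 to 55.5 with siControl in sgIGF2BP2 cells (0.26), and at 43.2 to 46.9 and 53.4 to 54.2 CPM in sgIGF2BP3 cells (0.26). The largest falls in sgIGF2BP2 cells were those of FAM111B (-0.36), RRM2 (-0.29) and CCNE2 (-0.27), and in sgIGF2BP3 cells those of CCNE2 (-0.36), RRM2 (-0.30) and RFC4 (-0.24). The values of the 2 lines, which share no library, had Pearson's r of 0.85 and Spearman's rho of 0.79 across the 47 genes, and 43 had the same sign. The siControl wells are also the reference of the siRNA comparisons, so genes low in siControl wells, such as RRM2 and FAM111B, were read against that low level there, and CCNE1 against a high one.

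For 3 of the genes, position on the chromosome has to be set beside the value. TK1 lies on chromosome 17 between SPOP and the end of the long arm, and the 250 tested genes of that stretch had a median of -0.17 (log2) in Dox-treated sgAAVS1 cells, with 130 called lower. In sgIGF2BP2 and sgIGF2BP3 cells the median was 0.02 and 0.01. RFC4 lies on chromosome 3 beyond IGF2BP2, where 48 tested genes had a median of -0.08 after Dox in sgIGF2BP2 cells (10 called lower) and 0.06 in sgAAVS1 cells. RPA3 lies on chromosome 7 beyond IGF2BP3, where 79 tested genes had a median of -0.15 after Dox in sgIGF2BP3 cells (20 called lower), and RPA3 had -0.19 there without a call. The part of these stretches in the values of TK1, RFC4 and RPA3 was not tested.

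Genes with and without an E2F match were among those that fell. After Dox in sgIGF2BP2 cells 21 of 23 genes with a match and 13 of 16 without were called lower, with medians of -0.24 and -0.27. Of all genes tested 10.4% were called lower there. In sgAAVS1 cells the counts were 12 of 23 and 7 of 16, with medians of -0.12 and -0.14, against 8.68% of all genes called lower. After siIGF2BP2, 5 of 23 with a match were higher and 2 lower, and 3 of 16 without were higher and 3 lower, where 18.4% of all genes were called in each direction.

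Other genes of the cell cycle changed in the same comparisons. Of 35 further replication genes 24 were lower and 1 higher after Dox in sgIGF2BP2 cells (median -0.20), among them the PCNA unloader ATAD5 (-0.41) and the helicase MCM8 (-0.35), while POLD4, a small subunit of polymerase delta, rose (0.43). In sgAAVS1 cells 7 were lower and 1 higher, with the histone chaperone ASF1B (-0.28) and the helicase RECQL4 (-0.25) falling most and POLD4 rising (0.61). None of the 35 was called by edgeR after Dox in sgIGF2BP3 cells (7 at an unadjusted p under 0.05), and 1 was called after siIGF2BP3 (POLE3, 0.18). Of 30 genes of G2 and mitosis 22 were lower after Dox in sgIGF2BP2 cells (median -0.17), including the proliferation marker MKI67 (-0.37) and the cyclin CCNA2 (-0.33), and 5 were lower in sgAAVS1 cells. Of 30 genes of break repair 15 were lower in sgIGF2BP2 cells, led by RAD54B (-0.45) and XRCC2 (-0.41), and 6 in sgAAVS1 cells. Over all genes tested, 10.4% were lower and 10.0% higher after Dox in sgIGF2BP2 cells, and 8.68% and 7.25% in sgAAVS1 cells. The lower levels in Dox-treated sgIGF2BP2 cells thus took in lists of later phases too.

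Regulators of the G1/S switch were mixed. Of 22 such genes 7 were lower and 4 higher after Dox in sgIGF2BP2 cells, where 10.4% of all genes were lower and 10.0% higher. The ubiquitin ligase adaptor FBXW7 (0.33) and cyclin gene CCND2 (0.20) rose most, and CDK2 (-0.26), the partner of cyclin E, was among the falls. MYC was called higher there but lower after Dox in sgAAVS1 cells (-0.41), and the difference was called. Of the 22, 6 were lower and 1 higher in sgAAVS1 cells, where 8.68% and 7.25% of all genes were. After siIGF2BP2, 5 were lower and 1 higher, where 18.4% of all genes were lower and, among those at least as highly expressed as the lowest of the 47, 23.0%. CCND1, which encodes cyclin D1, fell (-0.80), MYC fell (-0.50) and the repressor E2F8 rose (0.55). The siControl wells that are the reference here differed from DMSO wells of the sgIGF2BP2 line. Against DMSO they had 8 of the 22 higher, CCND1 among them, and 2 lower, E2F8 among them. Of all genes 10.2% were higher and 8.16% lower in siControl wells. CDKN1A, which encodes the CDK inhibitor p21, rose from 239 ± 7.40 to 341 ± 10.4 CPM (SD, n = 4) after Dox in sgIGF2BP2 cells (0.51, edgeR adjusted p = 1.03e-20) and from 255 ± 6.58 to 288 ± 8.69 in sgAAVS1 cells (0.18). It was 240 ± 5.99 and 258 ± 2.24 CPM in sgIGF2BP3 cells (0.10), called by DESeq2 and not by edgeR. After siIGF2BP2 it fell from 276 ± 6.07 to 212 ± 7.35 (-0.38). Of the 6 CDK inhibitor genes tested there, CDKN2B also fell (-0.34) and CDKN1B (0.51), CDKN2C (0.42) and CDKN2D (0.37) rose. In siControl against DMSO wells of the sgIGF2BP2 line 2 of these 6 were called higher, CDKN1A and CDKN1B, and 0 lower. After siIGF2BP3 CDKN1A stood at 278 ± 9.42 against 278 ± 6.55 CPM. The part of p21 in the levels of the replication genes was not tested.

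**Figure D4:**
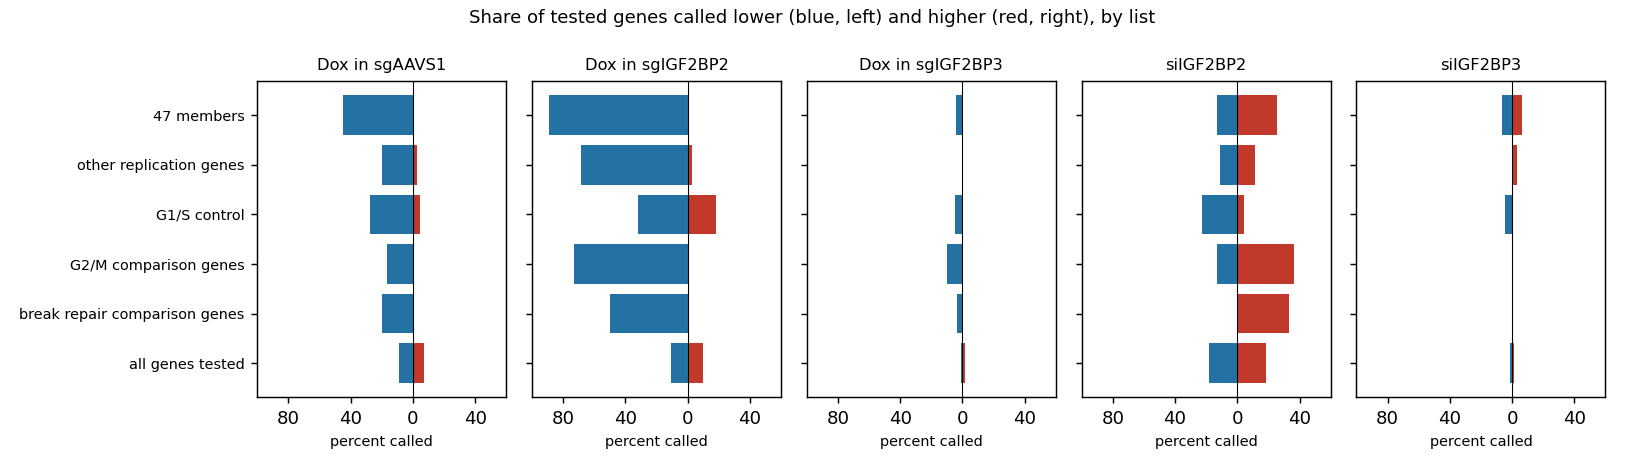
Percent of tested genes called lower (blue, left) and higher (red, right) in 5 treatment comparisons, for the 47 genes, 4 other lists and all genes tested. The blue bar of the 47 genes reaches 89.4% after Dox in sgIGF2BP2 cells and 44.7% in sgAAVS1 cells; after siIGF2BP2 the red bars of the mitotic and break repair lists are longer than the blue.

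After siIGF2BP2 the mitotic list had 11 of 30 genes higher and 4 lower, with HMMR (0.68) and CENPF (0.27) rising, ECT2 (-1.11) and ANLN (-0.46) falling. The break repair list had 10 of 30 higher and 0 lower, led by FANCF (0.39) and FANCL (0.31). Of all genes tested 18.4% were higher and 18.4% lower. Among those at least as highly expressed as the lowest of the 47, 19.2% were higher and 23.0% lower. No gene of either list was called by edgeR after siIGF2BP3, with 3 mitotic and 3 repair genes at an unadjusted p under 0.05.

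Counting could also touch some values. By their GENCODE exons 17 of the 47 genes share bases with a gene on the opposite strand, such as TYMS with ENOSF1 and MCM7 with AP4M1, and 6 with a gene on the same strand, such as PRIM1 with NACA. Named pseudogenes exist for 9 of them, with 8 for DUT. Whether the authors' counting used strand or dropped shared reads is not given in the sources used here, so the levels of these genes are uncertain.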

How the data were processed

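The authors deposited whole-number counts of reads per gene for 40 libraries (10 groups of 4), which were not normalized. Per the submitters' processing notes bcl2fastq 2.20.0.422, STAR 2.7.5c and the build hg38 were used; the counting tool, annotation and strand setting are not given in the sources used here. New and old RNA are counted together, and s4U conversions were not analysed here. From the deposited counts, genes were kept with filterByExpr of edgeR 4.0.16 (R 4.3.3), leaving 11428 genes with 99.98% of counts, and scaled by TMM (factors 0.978 to 1.03). CPM values use these scaled totals.

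Comparisons were tested with edgeR's quasi-likelihood method on all 40 libraries with 1 coefficient per group and no covariate, with Benjamini-Hochberg adjustment over all genes tested; called means an adjusted p under 0.05. The SE is the log2 fold change divided by the square root of F. There were 10 comparisons: Dox against DMSO in 3 lines, 2 siRNAs against siControl, siControl against DMSO in 2 lines, and 3 differences of effects. Comparisons with the same DMSO, siControl or sgAAVS1 wells share libraries. The common biological coefficient of variation was 3.79%. The SE covers counting error and the spread between wells. The script was tested on simulated data for Dox in sgIGF2BP2 cells (11367 genes, 200 changed). All 1.5-fold changes (100%) and 75% of 1.2-fold changes were recovered, with 4.89% of calls false. Every simulated gene had the common coefficient of variation, only genes above a minimum level were changed, and no library stood apart. The real data are less even, so recovery there can be lower and false calls more frequent. Replicate pairs differed beyond sampling noise (chi-square per gene 1.49 to 16.6), so none was treated as a duplicate.

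The members, gene lists and tests were chosen with earlier results of these data known. Every library's value is given for up to 3 rises and 3 falls with the greatest change per treatment comparison, among called genes without overlap between wells; other genes are named by list, by position beyond a guide gene or SPOP, or as up to 2 called genes per list and direction. Further members are given with values to account for all 47. Names and exons came from GENCODE 29 (19847 of 19962 identifiers matched), and promoters from RefSeq (GRCh38.p14). The alternatives were DESeq2 1.42.0 (Wald test), its size factors within edgeR, total counts alone, a looser and a stricter filter, thinning to the smallest total, only the groups compared, a replicate block, and leaving out each library.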

Additional observations from a re-analysis of the deposited data

Results flagged for a closer look

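Effects that differed between lines (Dox) or between the 2 siRNA pools, by the interaction term in edgeR's quasi-likelihood test, are listed with the log2 difference. For Dox in sgIGF2BP2 minus sgAAVS1 cells these were ORC1 (-0.26), MCM4 (-0.15), MCM7 (-0.16), MCM10 (-0.23), GINS1 (-0.21), GINS4 (-0.28), POLE2 (-0.44), RFC4 (-0.25), RFC5 (-0.22), RPA2 (-0.19), EXO1 (-0.22), RRM1 (-0.25) and FAM111B (-0.44). For Dox in sgIGF2BP3 minus sgAAVS1 cells they were MCM2 (0.16), MCM4 (0.13), MCM5 (0.22), POLE (0.19), RPA1 (0.18), TK1 (0.32) and UHRF1 (0.23). For siIGF2BP3 minus siIGF2BP2 they were MCM3 (-0.28), MCM5 (-0.19), GINS2 (-0.21), EXO1 (0.25), RRM2 (-0.15), TK1 (-0.22), CCNE1 (0.74), E2F1 (-0.19), SLBP (0.27) and FAM111A (-0.24). The siRNAs were given to different lines, so siRNA and line cannot be told apart.

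SLBP in the siControl wells of sgIGF2BP2 cells had 1 well, replicate 2 (93.4 CPM against 98.8 to 99.8), whose gap to the nearest other was 0.834 of the group's range, above Dixon's 95% critical value for 4 values. It was the only one to pass of the 48 sets of 4 wells that were tested, and chance flags about 1 in 20. Not every gene was tested in every group, so wells of other genes can stand apart as much. GINS2 in Dox-treated sgAAVS1 wells, for example, stood at 62.9, 62.9, 64.2 and 62.9 CPM.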

How the results depend on the processing

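No called value of a member reversed in any alternative, and 93 of 149 called member values kept their call in all of them: 38 of 42 for Dox in sgIGF2BP2, 15 of 21 in sgAAVS1 and 1 of 2 in sgIGF2BP3 cells, 9 of 18 after siIGF2BP2 and 3 of 6 after siIGF2BP3. Without single libraries the counts of members called ran from 38 to 42 (Dox in sgIGF2BP2), 15 to 21 (sgAAVS1), 1 to 2 (sgIGF2BP3), 14 to 17 (siIGF2BP2), 3 to 5 (siIGF2BP3), 8 to 15 and 10 to 13 (siControl in sgIGF2BP2 and sgIGF2BP3), 5 to 12 (Dox, sgIGF2BP2 minus sgAAVS1), 4 to 10 (sgIGF2BP3 minus sgAAVS1) and 9 to 11 (between siRNAs). Other counts that moved by over 1.5 times were 1 for Dox in sgIGF2BP3 cells after thinning, 6 for sgIGF2BP2 minus sgAAVS1 with only the groups compared, and 3 for sgIGF2BP3 minus sgAAVS1 with total counts alone. The cause was not tested. Total counts alone shifted the median of all genes by at most 0.046 in size.

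Same-numbered wells deviated together little (correlations -0.15 to 0.17). In the 5 treatment comparisons 5 of 40 libraries were best correlated with their own number. The labels do not say whether the numbers pair wells, and a weak shared effect could be missed this way. The main fit left the wells unpaired. With the replicate block, 22, 42 and 2 members were called for Dox in sgAAVS1, sgIGF2BP2 and sgIGF2BP3 cells, 18 and 6 after the siRNAs, 17 and 15 for siControl, and 16, 7 and 10 for the differences. DESeq2 called 21, 42, 3, 16, 6, 16, 15, 15, 8 and 10 in the same order. In data simulated for Dox in sgIGF2BP2 cells with the same spread for every gene, 75% of 1.2-fold changes were recovered, and smaller changes were not simulated.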
